A study of Mus musculus with 8 samples.

Results

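The 31 genes described here mark the glutamatergic (excitatory) projection neurons of the cerebral cortex and their layers, and were measured in polyadenylated RNA of dissected mouse corpus callosum. The genes were taken by symbol from a list of general excitatory and layer markers. All 31 were found among the 41128 genes of the count table, and all 31 were among the 15771 that passed the filter on low counts. The lowest count of any of them in a library was 15 reads, for Nxph4. One gene is listed under its older symbol, Ctgf, and is annotated as Ccn2. All mice were of the PLP-150Q strain, a Huntington's disease model in which the Plp promoter drives a mutant huntingtin fragment in oligodendrocytes. Because every mouse carried the transgene, nothing here compares it with its absence. Treatment began at 3 months of age and lasted 2 months, so that the tissue came from mice aged 5 months. The 4 control mice received purified water (libraries 1 to 4) and the 4 LAQ mice received LAQ at 5 mg/kg (libraries 5 to 8). The labels do not spell out LAQ, taken here to be laquinimod, a compound that modulates immune cells. The comparison asked how the compound alters gene expression in this tissue.

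Libraries held 8790749 to 12021429 counted reads. LAQ 7 stood apart from the other LAQ libraries: its chi-square per degree of freedom against them was 16.1 to 25.6, beside 7.87 to 8.93 among LAQ 5, 6 and 8 and 4.24 to 6.07 among the control libraries. Results are therefore given with and without LAQ 7. The tissue label was checked with 10 myelin and mature oligodendrocyte genes, which together took 12035 to 13822 CPM (reads of a gene scaled to a common library size, with TMM factors) in control and 12755 to 16718 CPM in LAQ. The 31 cortical markers together took 5414 to 6101 CPM in control and 4334 to 6131 CPM in LAQ, with the lowest sum in LAQ 7. All 31 were therefore measurable in pieces labelled as corpus callosum, a white matter tract. In such bulk tissue, fewer cells of a type and less RNA per cell cannot be told apart.

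The cerebral cortex lies directly above the corpus callosum, and its excitatory neurons are arranged in layers that are born in sequence from the deepest upward. Neurons of the upper layers mostly project within the cortex and through the callosum to the other hemisphere, those of layer 5 also to subcortical targets, and those of layer 6 mainly to the thalamus. Each layer is recognised by transcription factors that set its identity, such as Cux2 and Rorb above and Fezf2, Bcl11b and Tbr1 below. The genes were ordered here by their textbook main layer: 5 general excitatory genes, 9 markers of layers 2 to 4, 6 genes of several layers, 4 markers of layer 5 and 7 markers of layer 6 and the subplate. Many of them are also used by other neurons. Neurod6, Neurod2, Slc17a7 and Nptx1 are expressed in the hippocampus, Bcl11b, Pcp4 and Calb1 in the striatum, and Lamp5 and Calb1 in interneurons.

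Promoter sequences of the members that passed a test when LAQ 7 was left out are shown first, because these genes were reported in opposite directions (Neurod6 higher, Rorb and Mef2c lower in LAQ). RefSeq (build GRCm38.p6) gave promoter windows for 24 of the 31 genes. The 250 bases before the start site are printed where they overlap no annotated exon, 5′ to 3′ on the gene's strand. Both windows of Cux2, the fourth such gene, overlapped exons and are not shown. Capitals mark the motif CAGATG, searched on both strands (its reverse complement is CATCTG), a form of the E-box that proneural factors of the NeuroD family are known to bind. Neurod6 had 1 window (chr6:55681264-55681513, minus strand), which held no match. Rorb had 2 exon-free windows, at its outer start (chr19:19111197-19111446, minus strand) and at an internal start (chr19:19001118-19001367, minus strand), and neither held a match. Mef2c had 2 exon-free windows, of which the one at its outer start (chr13:83503784-83504033, plus strand) held no match. Its window at an internal start (chr13:83573357-83573606, plus strand) held 1, which began 245 bases before that start, and the remaining Mef2c window, which overlaps an exon and is not shown, held none.
Neurod6: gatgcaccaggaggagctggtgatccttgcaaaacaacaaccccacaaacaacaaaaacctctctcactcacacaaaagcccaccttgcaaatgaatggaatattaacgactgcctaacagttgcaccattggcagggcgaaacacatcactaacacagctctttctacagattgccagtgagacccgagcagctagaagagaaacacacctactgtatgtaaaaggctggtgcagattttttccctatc
Rorb, outer start: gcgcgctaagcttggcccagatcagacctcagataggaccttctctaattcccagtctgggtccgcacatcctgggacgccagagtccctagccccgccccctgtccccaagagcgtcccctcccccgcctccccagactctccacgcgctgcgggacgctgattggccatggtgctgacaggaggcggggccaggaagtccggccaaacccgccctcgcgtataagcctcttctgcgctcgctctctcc
Rorb, internal start: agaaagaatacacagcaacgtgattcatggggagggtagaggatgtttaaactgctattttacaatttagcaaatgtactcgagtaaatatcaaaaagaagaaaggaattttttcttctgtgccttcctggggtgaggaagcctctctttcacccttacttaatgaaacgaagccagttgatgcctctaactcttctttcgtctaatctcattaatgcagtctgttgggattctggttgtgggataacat
Mef2c, outer start: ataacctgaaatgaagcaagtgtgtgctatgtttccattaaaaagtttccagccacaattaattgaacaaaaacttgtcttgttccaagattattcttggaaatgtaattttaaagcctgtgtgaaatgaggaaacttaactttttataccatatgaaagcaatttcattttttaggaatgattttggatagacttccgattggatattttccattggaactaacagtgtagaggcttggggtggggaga
Mef2c, internal start: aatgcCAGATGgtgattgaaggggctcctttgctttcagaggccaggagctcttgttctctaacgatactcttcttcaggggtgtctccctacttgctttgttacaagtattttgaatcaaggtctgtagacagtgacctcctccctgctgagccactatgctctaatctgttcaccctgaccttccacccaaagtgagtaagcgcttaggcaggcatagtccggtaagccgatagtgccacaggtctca

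The motif was present in at least 1 window of 5 of the 24 matched genes (20.8%): Cux2, Mef2c, Etv1, Neurod2 and Nrgn. Over the whole table it was present in 14.4% of 32851 windows of the same length and in 16.3% of 27025 genes. These 5 genes did not share a direction, since Neurod2 and Etv1 had positive and Cux2, Mef2c and Nrgn negative fold changes in LAQ.

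In control, 3 of the 5 general excitatory genes stood highest per kilobase of annotated exon. Nrgn (neurogranin, a calmodulin-binding protein of dendrites) led with 310.3 ± 6.85 CPM per kilobase of exon (SD, n = 4), followed by Camk2a (the alpha subunit of the calcium/calmodulin kinase II) at 213 ± 13.0 and Slc17a7 (the vesicular glutamate transporter VGLUT1) at 201 ± 23.9. The layer 5 gene Pcp4, a small calmodulin-binding protein, came next at 163 ± 29.5, and Nptx1 (neuronal pentraxin 1, which helps cluster glutamate receptors) at 97.3 ± 15.5. Upper-layer transcription factors stood near the lower end, with Rorb at 6.55 ± 0.34, Cux2 at 3.97 ± 0.57, Cux1 at 3.54 ± 0.84 and Pou3f2 at 2.00 ± 0.27 CPM per kilobase. The length counts every annotated exon of a gene (20024 bases for Cux1, 11076 for Rorb), which lowers the rank of such genes. In CPM, Cux1 (70.9) and Rorb (72.6) stood near Tbr1 (78.3) in control. Nxph4, a secreted neurexin ligand of the subplate, was lowest at 1.81 ± 0.47. Of the 30 pairs of neighbours in this order, 23 had overlapping control ranges. The ranges do not pair the genes within a library, so overlap alone does not show that their levels were alike. The 7 breaks lay after Nrgn, Pcp4, Nptx1, Lamp5, Tbr1, Rorb and Rasgrf2.

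**Figure D1:**
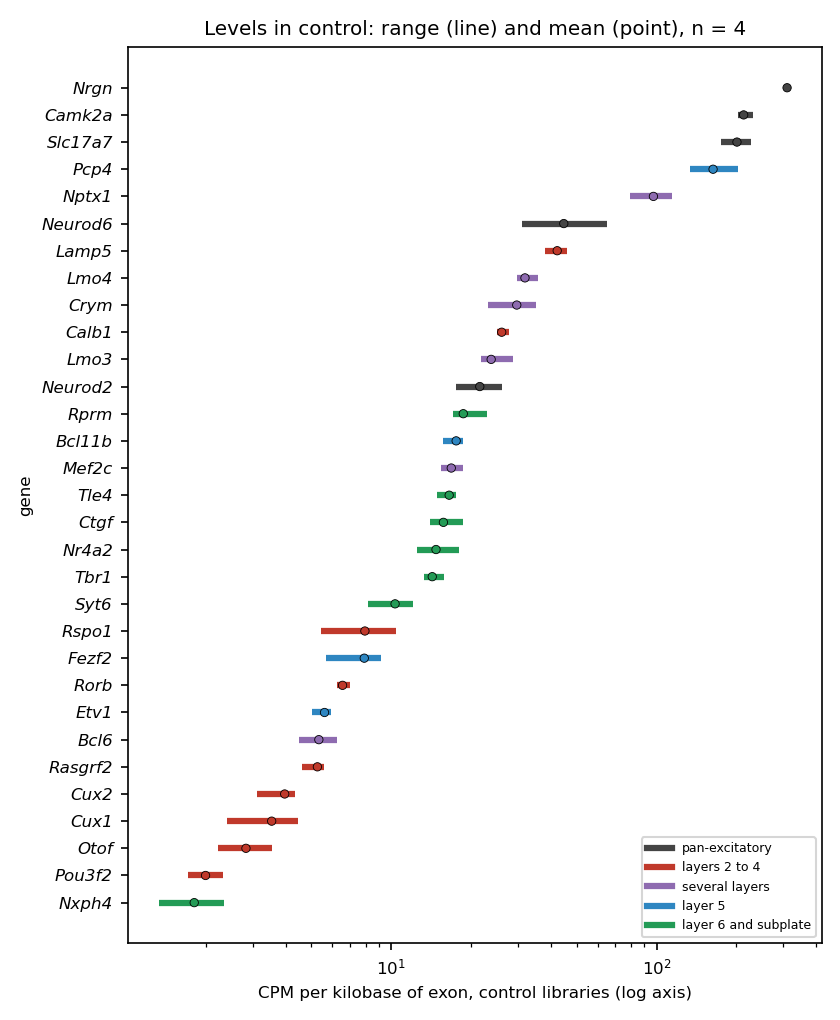
Level of each of the 31 markers in the 4 control libraries, as CPM per kilobase of exon on a log axis, with lines for the range, points for the mean and colours for the layer group. Nrgn stands highest at 310.3 and Nxph4 lowest at 1.81 CPM per kilobase.

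With all 8 libraries, the upper-layer markers stood lower in LAQ in 8 of 9 cases, beside 7937 of 15771 genes, but no member passed the test. By edgeR's quasi-likelihood test with Benjamini-Hochberg adjustment over all genes, 0 of 31 members and 0 of 15771 genes (0%) had an adjusted p under 0.05. At an unadjusted p under 0.05 stood 11 of the 31 members (35.5%) beside 11.1% of all genes. Of these, 8 members were lower in LAQ (25.8%, beside 6.33% of all genes) and 3 were higher (9.68%, beside 4.77%). The 8 lower members were Nrgn, Cux2, Lamp5, Pou3f2, Rorb, Rspo1, Mef2c and Ctgf, and the 3 higher ones were Lmo3, Bcl11b and Etv1. The median log2 fold change of the 31 members was -0.15, beside -0.0012 over all genes. DESeq2 on the same counts called 2 members, Cux2 and Mef2c, both lower in LAQ (6.45%, beside 0.662% of 15403 genes).

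Without LAQ 7, edgeR's test called 4 members at an adjusted p under 0.05. The 3 that fell in LAQ were Cux2, Rorb and Mef2c (9.68% of the members, beside 1.4% of 15898 genes), and the 1 that rose was Neurod6 (3.23%, beside 0.736%). At an unadjusted p under 0.05, 10 members were lower (32.3%, beside 10.8%) and 5 were higher (16.1%, beside 8.92%). The median log2 fold change of the members was then -0.11. Groups that did not overlap were seen in 3 lower members with all libraries, namely Nrgn, Cux2 and Mef2c (9.68%, beside 3.61% of all genes), and in 1 higher member, Bcl11b (3.23%, beside 2.78%). Without LAQ 7 there were 6 such lower members (19.4%, beside 8.7%), with Lamp5, Pou3f2 and Rorb added, and 3 higher ones (9.68%, beside 7.88%), with Neurod6 and Neurod2 added.

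**Figure D2:**
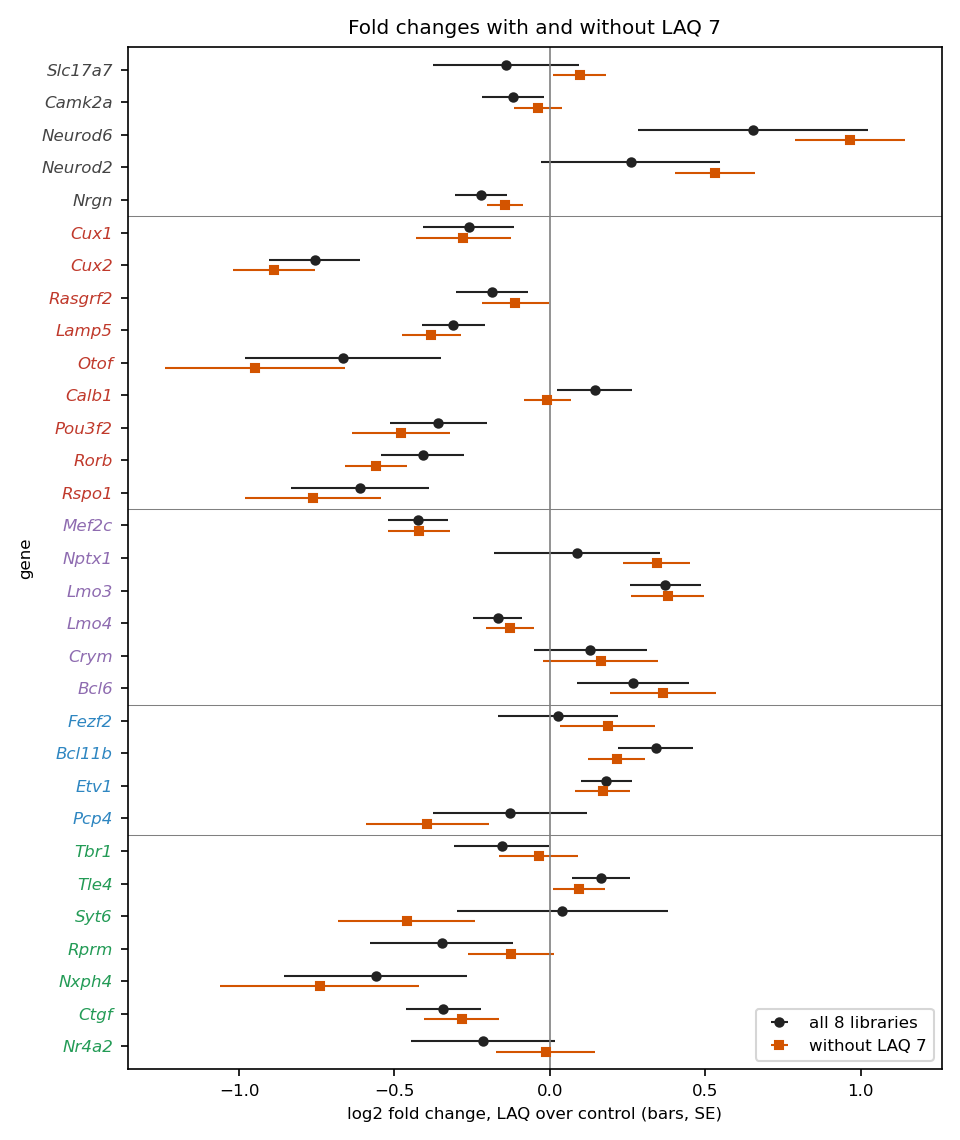
Log2 fold change of LAQ over control with its standard error for each of the 31 markers, from edgeR with all 8 libraries (circles) and without LAQ 7 (squares), grouped by layer. Cux2 lies at -0.76 and -0.89, while Slc17a7, Calb1 and Syt6 change side between the fits.

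Among the markers of layers 2 to 4, 8 of 9 had a negative log2 fold change with all libraries and 9 of 9 without LAQ 7. Of all 15771 genes, 7937 were negative with all libraries and 8036 without LAQ 7. The medians of these markers were -0.36 and -0.48. Their mean difference from the control average, on the log2 scale, was -0.46 in LAQ 5, -0.57 in LAQ 6, -0.10 in LAQ 7 and -0.46 in LAQ 8, while the control libraries lay between -0.21 (control 3) and 0.09. An unadjusted edgeR p under 0.05 was found for 5 of these 9 markers, all lower: Cux2, Lamp5, Pou3f2, Rorb and Rspo1. Over all genes, 6.33% were lower at that threshold.

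Cux2, a homeodomain transcription factor of upper-layer neurons (chromosome 5, 121856366 to 122050102, GRCm38), was read at 43.9, 42.1, 31.5 and 42.5 CPM in control libraries 1 to 4 and at 24.9, 21.1, 29.7 and 18.9 CPM in LAQ libraries 5 to 8. All LAQ libraries lay below all control libraries, although LAQ 7, the highest, came close to control 3, the lowest. Control libraries averaged 40.0 ± 5.74 CPM, against 23.6 ± 4.74 CPM for LAQ (SD over 4 libraries each). LAQ over control, the log2 ratio was -0.76 with an SE of 0.15. Its adjusted p was 0.140 with edgeR, 0.00163 with DESeq2 and 0.0162 with edgeR without LAQ 7, where the log2 fold change was -0.89 ± 0.13. Its paralog Cux1, which is also expressed outside the upper layers, was read at 89.0, 72.2, 48.2 and 74.5 CPM in control and 53.0, 62.3, 61.4 and 60.5 CPM in LAQ. Control 3, at 48.2 CPM, lay below every LAQ library, and the log2 fold change of -0.26 ± 0.15 had an edgeR adjusted p of 0.526. Exons of Cux1 overlap a gene on the opposite strand, which makes its count uncertain because the strand setting was not given in the sources used here.

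Rorb, the nuclear receptor that marks layer 4 (chromosome 19, 18930605 to 19111196), was read at 72.8, 77.7, 70.6 and 69.2 CPM in control and 57.0, 41.4, 70.7 and 49.4 CPM in LAQ. LAQ 5, 6 and 8 lay below the narrow control range and LAQ 7 within it. Its log2 fold change was -0.41 ± 0.13 with an edgeR adjusted p of 0.309, and -0.56 ± 0.10 with 0.0205 without LAQ 7. Lamp5, a membrane protein of endosomes and synaptic vesicles, was read at 116, 135, 112 and 132 CPM in control and 87.1, 109, 114 and 89.0 CPM in LAQ. LAQ 5, 6 and 8 again lay below every control library, by a small margin for LAQ 6. Its log2 fold change was -0.31 ± 0.10 (edgeR adjusted p = 0.316), or -0.38 ± 0.10 (0.0572) without LAQ 7.

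Pou3f2 (Brn2), a POU transcription factor of upper-layer neurons and of progenitors, stood low, at 13.0, 10.2, 9.61 and 11.8 CPM in control and 8.29, 8.19, 10.7 and 7.59 CPM in LAQ. LAQ 7 lay inside the control range and the other LAQ libraries lay below it. LAQ over control, the log2 ratio was -0.36 ± 0.16 (edgeR adjusted p = 0.434), or -0.48 ± 0.16 (0.120) without LAQ 7. Rspo1, a secreted enhancer of Wnt signalling, was read at 15.1, 20.2, 10.5 and 15.9 CPM in control and 11.5, 6.84, 13.0 and 8.94 CPM in LAQ, and its groups overlapped through control 3. Its log2 fold change was -0.61 ± 0.22 (edgeR adjusted p = 0.359), or -0.76 ± 0.22 (0.0834) without LAQ 7.

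Otof (otoferlin, a calcium sensor of exocytosis) split the LAQ libraries. It was read at 23.2, 20.7, 17.6 and 28.1 CPM in control, but at 6.57 and 8.73 CPM in LAQ 5 and 6 and at 21.4 and 19.96 CPM in LAQ 7 and 8. Only LAQ 5 and 6 lay outside the control range, and the log2 fold change of -0.66 ± 0.32 had an edgeR adjusted p of 0.457. Rasgrf2, a Ras exchange factor, averaged 48.7 ± 4.08 CPM over the control libraries and 42.8 ± 7.29 CPM over the LAQ libraries (edgeR adjusted p = 0.576). Calb1 (calbindin, a calcium buffer also abundant in the striatum) stood at 121 to 135 CPM in control and at 138, 124, 181 and 115 CPM in LAQ, where only LAQ 5 and LAQ 7 exceeded every control library and LAQ 8 lay below them. Its log2 fold change was 0.14 with all libraries and -0.01 without LAQ 7.

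**Figure D3:**
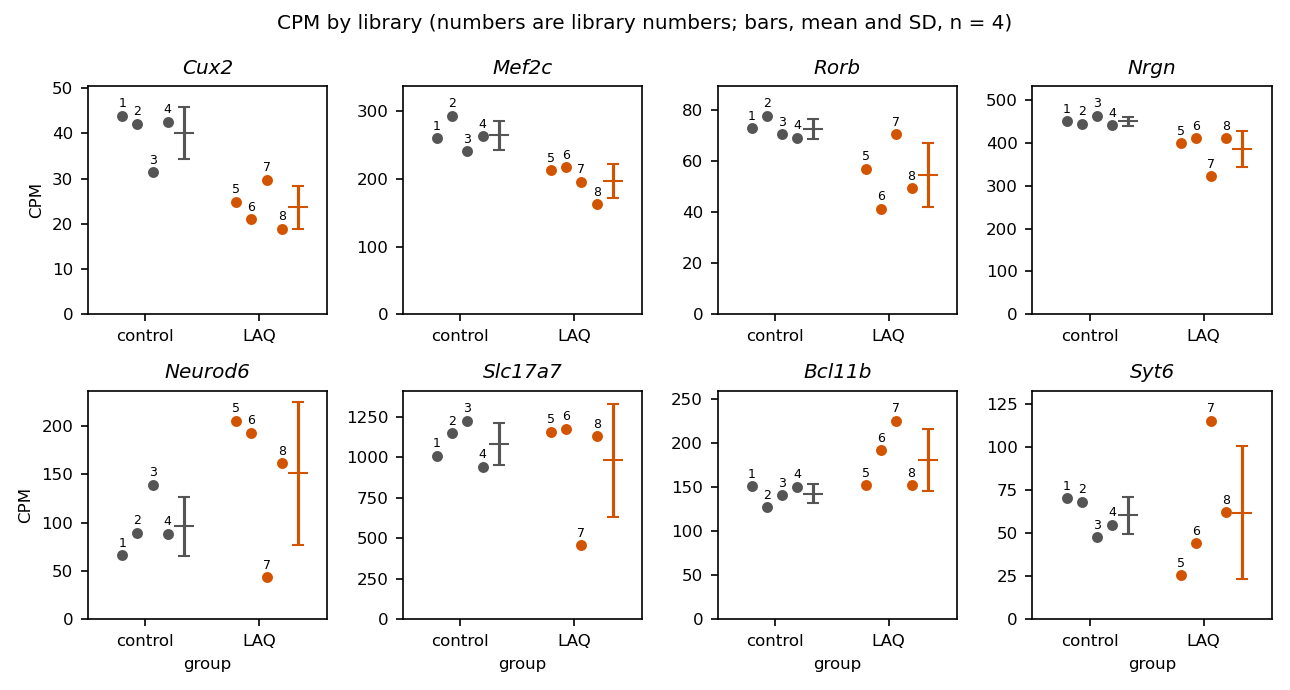
CPM of 8 markers in each library, with numbers for the libraries and bars for the group mean and SD (n = 4). Cux2, Mef2c and Nrgn show LAQ points below all control points, and LAQ 7 lies far from the other LAQ libraries for Neurod6, Slc17a7 and Syt6.

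Of the genes expressed in several layers, Mef2c differed most evenly. Mef2c, an activity-regulated transcription factor that is also expressed in interneurons, microglia and vessels (chromosome 13, 83504034 to 83667080), was read at 260.3, 293, 241 and 263 CPM in control and 213, 217, 196 and 163 CPM in LAQ. Every LAQ library lay below every control library, and LAQ 7 did not stand apart. Control libraries averaged 265 ± 21.6 CPM, against 197 ± 24.8 CPM for LAQ (SD over 4 libraries each). The log2 fold change was -0.42 ± 0.10, with an adjusted p of 0.181 by edgeR, 0.0193 by DESeq2 and 0.0467 by edgeR without LAQ 7. Lmo3, a LIM-only transcriptional cofactor, was read at 111, 117, 148 and 112 CPM in control and 171, 176, 156 and 129 CPM in LAQ. Control 3 lay among the LAQ libraries, and the log2 fold change was 0.37 ± 0.11 (edgeR adjusted p = 0.278), or 0.38 ± 0.12 (0.0986) without LAQ 7.

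The remaining genes of this group showed no common direction. Nptx1 was read at 416, 546, 598 and 469.7 CPM in control, at 703, 638 and 591 CPM in LAQ 5, 6 and 8, and at 224 CPM in LAQ 7. LAQ 7 was the lowest of the 8 libraries, and its removal took the log2 fold change from 0.09 to 0.34 (edgeR adjusted p = 0.935 and 0.103). Bcl6, a transcriptional repressor, stood at 55.0 and 52.1 CPM in LAQ 5 and 6, above the control range of 30.2 to 41.9 CPM, and at 34.3 and 31 CPM in LAQ 7 and 8, inside it. Crym (mu-crystallin, a thyroid hormone binding protein) was highest in LAQ 8 at 157 CPM, while the other 3 LAQ libraries lay within the control range of 78.4 to 119 CPM. Lmo4 averaged 113 ± 9.26 CPM over the control libraries and 100.2 ± 6.8 CPM over the LAQ libraries. None of these 4 passed edgeR's test, with adjusted p of 0.453 (Lmo4) to 0.935 (Nptx1). Exons of Bcl6 overlap a gene on the opposite strand.

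The 5 general excitatory genes separated into a pair of patterns. Slc17a7, Neurod6 and Neurod2 were low in LAQ 7 and within or above the control range in LAQ 5, 6 and 8, whereas Camk2a and Nrgn differed less between libraries. Neurod6, a basic helix-loop-helix transcription factor of maturing and adult excitatory neurons (chromosome 6, 55677822 to 55681263), was read at 66.6, 89.7, 139.6 and 88.5 CPM in control and 206, 193, 43.7 and 162 CPM in LAQ. LAQ 5, 6 and 8 lay above every control library and LAQ 7 below every one. With all libraries the log2 fold change was 0.65 ± 0.37 with an edgeR adjusted p of 0.531, and 0.96 ± 0.18 with 0.0214 without LAQ 7. Neurod2, a related factor, showed the same order: 55.3, 70.2, 81.9 and 63.6 CPM in control and 114, 95.6, 31.6 and 82.8 CPM in LAQ, with an edgeR adjusted p of 0.784, or 0.0506 without LAQ 7. This arrangement, LAQ 7 under all control libraries and the other LAQ libraries over them, was met by 2 of 31 members (6.45%) and by 1.95% of all genes.

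Slc17a7 was read at 1012, 1148, 1228 and 944 CPM in control, at 1159.8, 1178 and 1133 CPM in LAQ 5, 6 and 8, and at 459 CPM in LAQ 7. The first 3 LAQ libraries named lay inside the control range, and their mean was 2.52 times the value in LAQ 7. Its log2 fold change turned from -0.14 ± 0.23 with all libraries to 0.10 ± 0.08 without LAQ 7, and neither passed edgeR's test (adjusted p = 0.864 and 0.585). Nrgn was read at 452, 445, 464 and 441 CPM in control and 399.8, 412, 322 and 412 CPM in LAQ. Its control values were close together, and every LAQ library lay below them, LAQ 7 furthest. The log2 fold change was -0.22 ± 0.08 (edgeR adjusted p = 0.366), or -0.14 ± 0.06 (0.193) without LAQ 7. Camk2a averaged 1589 ± 97.0 CPM over the control libraries and 1464 ± 213 CPM over the LAQ libraries, with LAQ 7 lowest at 1213 CPM (edgeR adjusted p = 0.702).

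Of the 4 markers of layer 5, 3 had a positive log2 fold change and 0 passed edgeR's test. Bcl11b (Ctip2), the zinc finger factor of subcerebral projection neurons and of striatal neurons, was read at 151, 127, 141 and 151 CPM in control and 152, 192, 225 and 152 CPM in LAQ. No LAQ library overlapped the control range, but LAQ 5 and 8 exceeded control 1, the highest, by little more than 1 CPM. The log2 fold change was 0.34 ± 0.12 with all libraries and 0.22 ± 0.09 without LAQ 7 (edgeR adjusted p = 0.349 and 0.213). Etv1, an ETS transcription factor of layer 5, was read at 66.6, 78.0, 78.6 and 74.9 CPM in control and 94.1, 78.4, 86.6 and 78.8 CPM in LAQ, with control 2 and 3 beside LAQ 6 and 8. Its log2 fold change was 0.18 ± 0.08 (edgeR adjusted p = 0.450), or 0.17 ± 0.09 (0.309) without LAQ 7. Fezf2, the factor that specifies subcerebral projection neurons, averaged 24.1 ± 4.80 CPM over the control libraries and 24.5 ± 6.19 CPM over the LAQ libraries (edgeR adjusted p = 0.978). Pcp4 was read at 207, 173, 137 and 153 CPM in control and ran from 81.1 CPM in LAQ 5 to 230.2 CPM in LAQ 7, the lowest and the highest of the 8 libraries. Its exons overlap those of Igsf5 on the same strand.

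Markers of layer 6 and the subplate were lower on median (-0.22 on the log2 scale, or -0.13 without LAQ 7), with 5 of 7 negative, and none passed edgeR's test. Ctgf, a secreted matrix-associated protein that marks the subplate and is also made by vessel cells, was read at 40.1, 53.2, 42.2 and 44.4 CPM in control and 33.2, 34.2, 31.1 and 43.6 CPM in LAQ. LAQ 5, 6 and 7 lay below every control library and LAQ 8 within them. The log2 fold change was -0.34 ± 0.12 (edgeR adjusted p = 0.349), or -0.28 ± 0.12 (0.210) without LAQ 7. Exons of Ctgf overlap a gene on the opposite strand. Nxph4 was read at 3.92, 3.45, 2.52 and 2.23 CPM in control and 1.43, 1.53, 2.72 and 2.5 CPM in LAQ, on 15 to 41 reads per library, with a log2 fold change of -0.56 ± 0.30 (edgeR adjusted p = 0.503), or -0.74 ± 0.32 (0.219) without LAQ 7. At that depth the ranges of the groups overlapped.

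For the other 5 genes of layer 6 and the subplate, the SD among LAQ libraries exceeded the difference between the group means. Syt6, a synaptotagmin, was read at 70.3, 68.2, 47.7 and 54.8 CPM in control and 25.5, 44.2, 115 and 62.1 CPM in LAQ. LAQ 5 was the lowest and LAQ 7 the highest of all 8 libraries, the latter 2.62 times the mean of the other LAQ libraries, and the log2 fold change turned from 0.04 to -0.46 without LAQ 7 (edgeR adjusted p = 0.980 and 0.268). Exons of Syt6 overlap a pseudogene on the opposite strand. Tle4, a Groucho corepressor, was highest in LAQ 7 (120.5 CPM beside 84.7 to 100.4 CPM in control). By contrast, LAQ 7 was lowest for Tbr1, the T-box factor of layer 6 (52.6 CPM beside 73.1 to 86.9 CPM in control), for Nr4a2, a nuclear receptor of the subplate and claustrum (28.9 CPM beside 50.9 to 72.9), and for Rprm, a mediator of cell cycle arrest (11.1 CPM beside 24.9 to 33.6). EdgeR adjusted p-values of these 4 genes ran from 0.527 (Tle4) to 0.776 (Nr4a2).

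**Figure D4:**
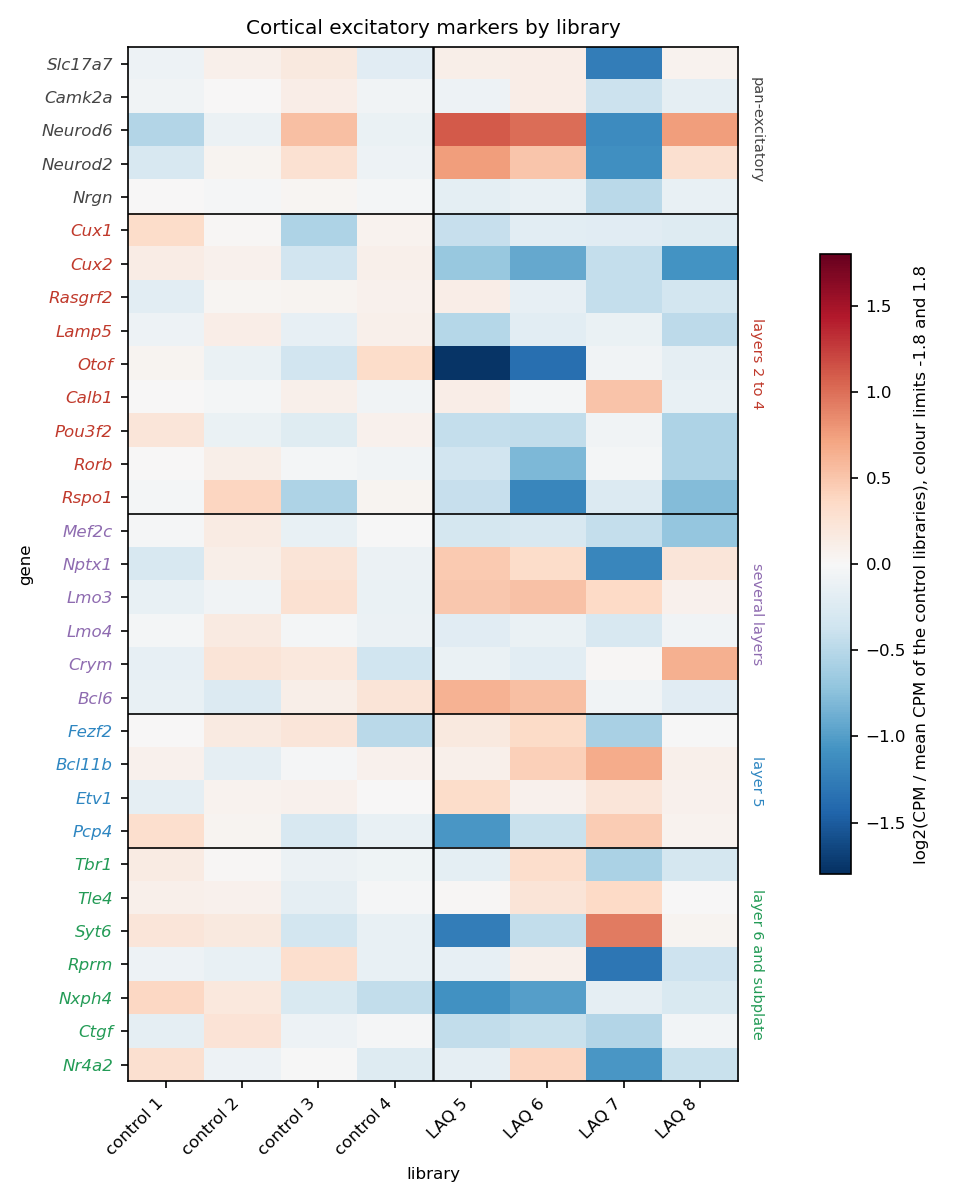
Log2 ratio of CPM to the mean of the control libraries for the 31 markers (rows, ordered by layer group) in the 8 libraries (columns), with red for higher and blue for lower. The LAQ 7 column is lowest of the 8 libraries for 13 genes and highest for 5.

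The markers varied more among the LAQ libraries than among the control libraries. The SD of log2 CPM was larger in LAQ than in control for 29 of 31 members (93.5%, beside 63.7% of all genes), with medians over the members of 0.33 in LAQ and 0.19 in control, beside 0.18 and 0.14 over all genes. Without LAQ 7 it was larger for 20 of 31 (64.5%, beside 52.7%), and the median in LAQ was 0.21. LAQ 7 was the lowest of the 8 libraries for 13 members (41.9%, beside 16.1%) and the highest for 5 (16.1%, beside 15.8%). The 5 were Calb1, Bcl11b, Pcp4, Tle4 and Syt6. The sign of the fold change turned without LAQ 7 for Slc17a7, Calb1 and Syt6, which is 9.68% of the members beside 11.4% of all genes.

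Each member was also set against the mean of the 5 general excitatory genes in the same library, which was 8.25 to 8.67 log2 CPM in control, 8.6 to 8.78 in LAQ 5, 6 and 8 and 7.57 in LAQ 7. Of the other 26 members, only Rprm did not overlap between the groups on this scale, being lower in LAQ (3.85%, beside 0.114% of all genes in that direction). Because the 5-gene mean was lowest in LAQ 7, only genes that were also low in that library could meet this rule. This keeps the share over all genes small. Rprm stood at -3.79 to -3.56 in control and -4.20 to -3.90 in LAQ, where LAQ 7 was not apart. In CPM its groups overlapped, with a log2 fold change of -0.35 (edgeR adjusted p = 0.602), or -0.13 (0.674) without LAQ 7. Against the 5-gene mean, Cux2 stood at -3.69 to -2.78 in control, at -4.36 to -4.13 in LAQ 5, 6 and 8, and at -2.67 in LAQ 7. Such a difference shows only that the genes changed unequally. In LAQ 7, Cux2 was higher relative to this 5-gene mean than in any other library, although its CPM was below control. Neurod6 and Neurod2, above every control library in LAQ 5, 6 and 8, raised that mean there. Neurod6, Neurod2 and Slc17a7 pulled it down in LAQ 7, at 0.23, 0.32 and 0.40 times their mean in the other LAQ libraries. Camk2a and Nrgn stood at 0.78 and 0.79 times, so the order need not hold against either alone.

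A further 30 cortical excitatory genes, none of them members, showed no common direction. They were not sorted by layer, so they do not show whether further markers of layers 2 to 4 were lower. Of the 30, 13 were higher and 17 lower with all libraries, with a median log2 fold change of -0.04 (0.02 without LAQ 7), and 0 passed edgeR's test over all genes. At an unadjusted edgeR p under 0.05, 2 of the 30 were higher and 4 lower, beside 4.77% and 6.33% of all genes. Without LAQ 7, 10 of the 30 were higher and 6 lower at that threshold, beside 8.92% and 10.8% of all genes. Sox5, a transcription factor of deep-layer neurons that oligodendrocyte precursors also express, had a mean of 37.3 ± 4.28 CPM over the control and 24.1 ± 2.43 CPM over the LAQ libraries (SD, n = 4), with a log2 fold change of -0.63 ± 0.11 (SE) and an adjusted p of 0.136 by edgeR and 0.000788 by DESeq2. Without LAQ 7, Sox5 was the only one of the 30 that edgeR called, at -0.58 and an adjusted p of 0.0242. Plcxd2 (-0.36), Deptor (-0.34) and Cplx3 (-0.39) were lower and Scnn1a (0.50) was higher on the log2 scale, with edgeR adjusted p of 0.278 to 0.431.

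Markers of other cells differed between the libraries as well, and their part in the values above was not tested. The 9 measured striatal genes together took 1678 to 2196 CPM in control, 629.7 CPM in LAQ 5 and 4208 CPM in LAQ 7. In these same libraries Pcp4 and Syt6 were lowest and highest. Bcl11b and Calb1, also expressed in the striatum, were highest in LAQ 7 too. In LAQ 5, however, they stood above every control library, at 152 and 138 CPM. The 10 hippocampal genes took 399.6 to 576 CPM in control and 844, 706, 535 and 594 CPM in LAQ 5 to 8. All 10 had a positive log2 fold change (median 0.72, or 0.96 without LAQ 7), and their highest sums fell in LAQ 5 and 6, where Neurod6 and Neurod2 were also highest. The hippocampal list shares Wfs1 and Neurod1 with the further cortical list. The 10 thalamic genes took 351 to 496 CPM in control and 229 to 383 CPM in LAQ, with 9 of 10 lower, among them Rora, a nuclear receptor related to Rorb, at a log2 fold change of -0.49 ± 0.13 (edgeR adjusted p = 0.228, or 0.0235 without LAQ 7).

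The 10 interneuron genes took 1474 to 1705 CPM in control and 1413 to 1871 CPM in LAQ, with the highest sum in LAQ 7. The 8 endothelial and mural genes, of cells that also express Ctgf and Mef2c, took 424 to 539.7 CPM in control and 262 to 534 CPM in LAQ, and all 8 had a negative fold change. The 7 microglial genes took 538 to 599 CPM in control and 507 to 591 CPM in LAQ, and the 6 oligodendrocyte precursor genes 727 to 824 and 621 to 819.8 CPM. The 8 immediate early genes, which neuronal activity induces as it does Nr4a2, took 1171 to 1914 CPM in control and 966 to 1295 CPM in LAQ. All 8 were lower (6 of 8 without LAQ 7), but only 2 at an unadjusted edgeR p under 0.05. The highest sum was that of control 2, while control 1 and 3, at 1171 and 1181 CPM, lay below LAQ 6 at 1295 CPM. The 10 myelin genes were all higher in LAQ (median 0.19, or 0.12 without LAQ 7), and their sum was highest in LAQ 7. The 8 astrocyte genes took 5029.9 to 5608 CPM in control and 4943 to 5501 CPM in LAQ, and the 8 septal genes 167 to 214 and 199 to 281 CPM. Of the ventricular lists, the 6 ependymal genes were higher in LAQ, at 24.1 to 35.4 CPM in control and 40.3 to 55.9 CPM in LAQ. The sums of the 6 choroid plexus genes overlapped, at 394 to 2542 CPM in control and 1304 to 3692 CPM in LAQ. All 6 of the latter had a positive fold change, but 0 had an unadjusted edgeR p under 0.05. No list gene that was found stood at 0 in all libraries. The striatal Drd1 was not analysed here, and the septal Gbx1 lay below the filter.

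**Figure D5:**
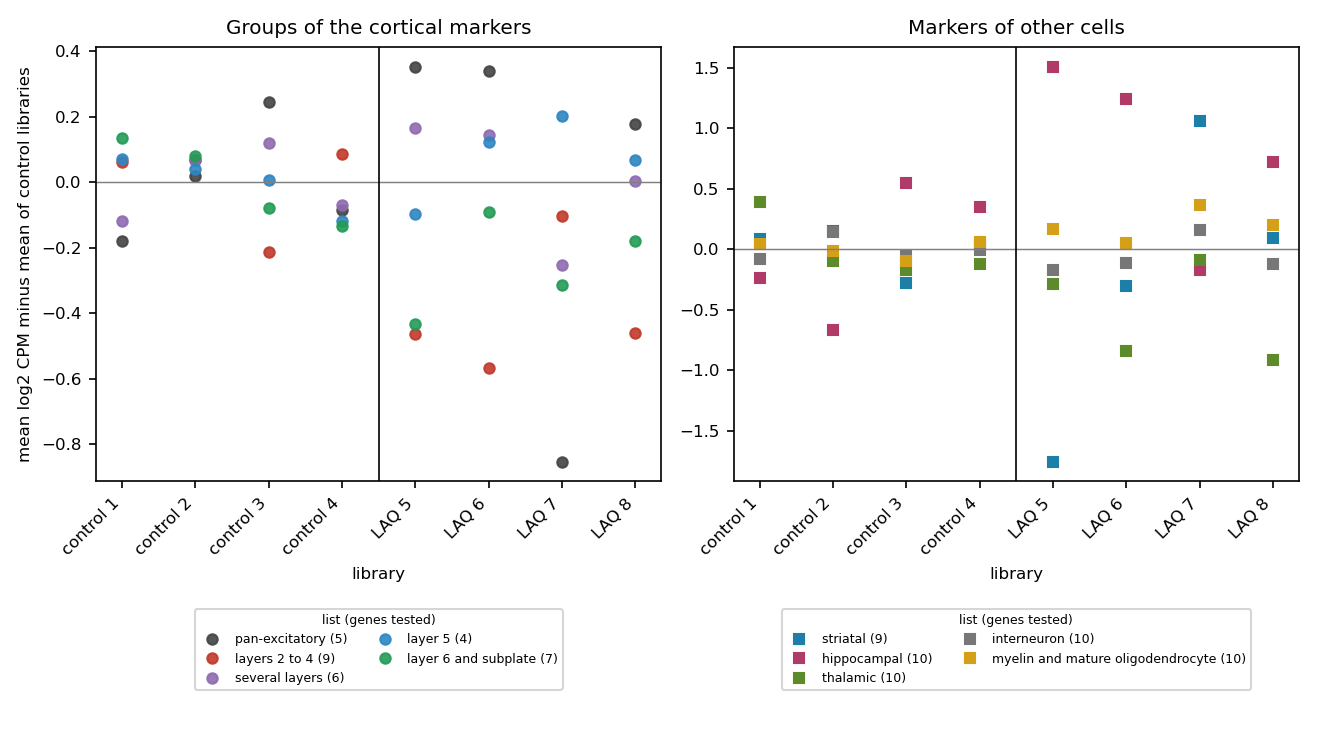
Mean log2 CPM minus the mean of the control libraries, for the layer groups of the 31 markers (left) and for lists of other cells (right), in each library. The markers of layers 2 to 4 lie at -0.46, -0.57 and -0.46 in LAQ 5, 6 and 8, while LAQ 7 has the lowest general excitatory mean and the highest striatal mean.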

How the data were processed

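Polyadenylated RNA of corpus callosum from 4 control and 4 LAQ mice was sequenced. Per the submitters' processing notes, bcl2fastq 2.17.1.14, STAR 2.5.2b, HTSeq, DESeq2 1.10.1 and build GRCm38.p3 were used; the strand setting is not given in the sources used here. The authors deposited raw counts per gene and a table of normalized counts, a signal in which, per the file headers, the values come from DESeq2. The raw counts were analysed, and the deposited normalized signal was used only to check the library scaling. Every sample column of both tables was mapped by its title, and 0 were left unused.

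Genes were filtered with filterByExpr (minimum count 10, minimum total 15), scaled by TMM and tested with edgeR 4.0.16 (quasi-likelihood, two-sided, Benjamini-Hochberg over 15771 genes, threshold 0.05) in R 4.3.3, with no covariates. The SE is the absolute log2 fold change divided by the square root of F. CPM used effective library sizes, and log2 CPM a prior count of 2. Lengths and overlaps came from a GENCODE annotation of GRCm38. The scripts were tested on simulated data. Alternatives were DESeq2 1.42.0, limma 3.58.1 (voom, with and without sample weights), robust estimation, other scalings and filters, an adjusted p under 0.1, and leaving out each library. Library totals of 8790749 to 12021429 reads limit precision for the lowest genes. The p-values set the difference between the groups against the spread between these libraries.

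The members and all lists were chosen with earlier results of these data known. Full values are given for members with an unadjusted p under 0.05, members called by DESeq2 or without 1 library, and the 2 of smallest p in each layer group; up to 6 genes of the further cortical list and 3 of each other list could be named. Some genes of the further cortical list are not reported here by name.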

Additional observations from a re-analysis of the deposited data

Results flagged for a closer look

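Within each group of 4 libraries, the gap between the highest or lowest library and its nearest neighbour was divided by the range and set against Dixon's critical value for 4 samples. Of 62 such groups (31 genes in 2 treatments), 6 exceeded it, where chance flags about 1 in 20, or 3.1. In LAQ, library 7 stood apart for Slc17a7 at 459 CPM (the other LAQ libraries at 1133 to 1178 CPM) and for Nrgn at 322 CPM (the others at 399.8 to 412 CPM). In control, library 3 stood apart for Cux2 at 31.5 CPM (the others at 42.1 to 43.9 CPM), for Lmo3 at 148 CPM (111 to 117 CPM) and for Rprm at 33.6 CPM (24.9 to 25.6 CPM). Control 1 stood apart for Rasgrf2 at 42.6 CPM (50.01 to 51.5 CPM).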

How the results depend on the processing

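With all 8 libraries, edgeR called 0 genes and 0 members. Without a filter it called 25 genes and 1 member (Cux2, adjusted p = 0.0241), DESeq2 called 129 genes and 2 members, and voom with sample weights called 1 gene and 0 members. Leaving out each library gave 0 to 339 genes and 0 to 4 members, the highest of both without LAQ 7. The cause was not tested. The 11 members at an unadjusted p under 0.05 became 9 to 15 over all settings. The median log2 fold change of the members (-0.15) ran from -0.21 without LAQ 6 to -0.11 without LAQ 7. The settings were run for 13 members (Neurod6, Nrgn, Cux2, Lamp5, Pou3f2, Rorb, Rspo1, Mef2c, Lmo3, Bcl11b, Etv1, Nxph4 and Ctgf), and none of these changed direction under any of them. Of the other members, for which only the removal of LAQ 7 is given, Slc17a7, Calb1 and Syt6 changed direction. The adjusted p over all settings ran from 0.00163 to 0.448 for Cux2, from 0.0193 to 0.492 for Mef2c, from 0.0205 to 0.599 for Rorb and from 0.0214 to 0.776 for Neurod6. No paired analysis was possible because the groups share no replicate numbers. Depth limits Nxph4, with 15 to 41 reads per library.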
